A study of Mus musculus with 3 samples.

Results

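The genes of 4 secreted enzymes, *Pgc*, *Pnliprp1*, *Pnliprp2* and *Prss56*, were followed across the cells of 3 single-cell RNA libraries of mouse small intestinal epithelium. They are 4 of the 27998 genes measured. They had been selected on measured values, as genes that stood higher in adenoma cells of these libraries, so their levels in adenoma cells against other cells are given as a description. The selection had no numeric threshold. The levels did not bear out one common pattern. *Pgc* stood higher in summed adenoma cells than in the sum of the remaining cells in both mutant libraries. For LApc, 64.1% of its adenoma counts came from 1 of the 4 adenoma subclusters. The other 3 genes were high in adenoma cells of LApc only. *Pnliprp2* stood lower in adenoma cells than in the sum of the remaining cells of LApcL, most of whose *Pnliprp2* counts lay in Paneth-like cells.

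Each library came from EpCAM+ cells, that is, cells with the surface protein of epithelia, of 1 C57BL/6 mouse per genotype. WT was labelled as wild type with no allele named, and elsewhere in the study that name stands for Lgr5-EGFP-IRES-CreERT2 control mice. LApc carried Lgr5-EGFP-IRES-CreERT2 and Apcfl/fl, and LApcL carried Lef1fl/fl on top of these alleles. The study states that the Lef1fl/fl line was of mixed background before it was backcrossed to C57BL/6. All 3 mice, WT included, were given 2 tamoxifen doses of 2 mg at 7 to 8 weeks of age, and cells were taken 21 (WT), 29 (LApc) and 21 (LApcL) days later. Cre in these lines is driven by *Lgr5*, a gene of intestinal stem cells, so recombination starts in *Lgr5*+ cells and the remaining epithelium of a mutant mouse is not deleted unless it descends from them. With 1 library per genotype there was no replicate of any value, no test was possible, and genotype cannot be told apart from mouse, library or, for LApc, the day of analysis. All intervals below are exact 95% intervals for counting error alone.

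*Pgc* encodes progastricsin (pepsinogen C), an aspartic protease zymogen that is normally made in gastric glands and activated by acid. *Pnliprp1* and *Pnliprp2* encode lipase-related proteins of the pancreatic lipase family, which pancreatic acinar cells secrete into the duodenum, and *Prss56* encodes a trypsin-like serine protease that is best known from the eye. Loss of *Apc* stabilises beta-catenin, which then acts with Tcf/Lef factors on their target genes, and Lef1 is one of these factors.

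*Pgc* (ENSMUSG00000023987) lies on chromosome 17 from 47726842 to 47734482, *Pnliprp1* (ENSMUSG00000042179) on chromosome 19 from 58728887 to 58744169, *Pnliprp2* (ENSMUSG00000025091) on chromosome 19 from 58759719 to 58777534 and *Prss56* (ENSMUSG00000036480) on chromosome 1 from 87183313 to 87188405, all on the plus strand of GRCm38 (mm10) in the GENCODE M21 annotation. Both lipase genes are neighbours, 15549 bases apart with 0 annotated genes between them. The 4 genes overlapped 0 other annotated genes, and 0 of the 50-base stretches of their annotated transcripts occurred in a transcript of another gene, so that reads of the related lipases can be told apart. The 250 bases before each start site (RefSeq, GRCm38.p6) are shown because the genes were compared between cells that differ in a Wnt pathway factor. They are chr17:47726592-47726841 for *Pgc*, chr19:58728637-58728886 for *Pnliprp1*, chr19:58759473-58759722 for *Pnliprp2* and chr1:87183064-87183313 for *Prss56*, all on the plus strand. Capitals mark CTTTGA or its reverse complement TCAAAG, the core of the Tcf/Lef recognition motif, searched on both strands.
Pgc: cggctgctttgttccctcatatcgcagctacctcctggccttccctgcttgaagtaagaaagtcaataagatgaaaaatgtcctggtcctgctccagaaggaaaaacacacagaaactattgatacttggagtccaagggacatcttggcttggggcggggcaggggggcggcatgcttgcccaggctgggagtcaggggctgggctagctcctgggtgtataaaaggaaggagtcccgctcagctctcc
Pnliprp1: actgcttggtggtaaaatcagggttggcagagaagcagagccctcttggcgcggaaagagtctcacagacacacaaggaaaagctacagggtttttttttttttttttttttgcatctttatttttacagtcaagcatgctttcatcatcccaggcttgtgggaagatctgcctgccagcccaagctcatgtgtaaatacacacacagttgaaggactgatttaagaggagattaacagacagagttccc
Pnliprp2: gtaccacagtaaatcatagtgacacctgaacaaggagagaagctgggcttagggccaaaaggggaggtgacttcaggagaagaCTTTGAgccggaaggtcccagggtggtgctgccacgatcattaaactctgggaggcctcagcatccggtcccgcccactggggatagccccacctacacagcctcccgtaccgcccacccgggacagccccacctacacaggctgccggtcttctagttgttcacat
Prss56: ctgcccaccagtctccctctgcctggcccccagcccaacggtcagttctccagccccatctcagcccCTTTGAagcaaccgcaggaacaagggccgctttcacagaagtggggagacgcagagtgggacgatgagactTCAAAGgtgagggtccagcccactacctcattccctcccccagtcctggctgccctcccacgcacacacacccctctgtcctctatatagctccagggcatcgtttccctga
The core motif was present in 2 of the 4 windows. *Prss56* held it at 183 and 112 bases before the start (first base of the match), and *Pnliprp2* at 167 bases before it. The windows of *Pgc* and *Pnliprp1* did not hold these letters. Of 32851 windows of the same length in the RefSeq table, 13.8% held a match.

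After filtering, 10138 (WT), 9601 (LApc) and 14394 (LApcL) cells were kept, with medians of 9711.5, 6133 and 10140 unique molecular identifiers (UMIs, counts of captured RNA molecules). Adenoma-enriched cells were defined as subclusters of Wnt/TA-like cells (crypt stem and transit-amplifying cells) that WT gave under 10% of. None of the 4 genes was used to cluster. They comprised 4 cells of WT, 1274 of LApc and 9160 of LApcL, with median depths of 7492 and 11476.5 UMIs in the mutants. In these cells *Lef1* stood at 21.2 CPM (UMIs per 1000000 UMIs of the summed cells) in LApc and 3.56 CPM in LApcL, against 0.124 CPM over all WT cells. *Apc* stood at 48.3 and 37.2 CPM, against 16.6 CPM in WT. The library counts the ends of transcripts, so the counts of a floxed gene do not check its deletion. The libraries shared 214 to 318 cell barcodes per pair.

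*Pgc* differed in direction from the other 3 genes between both mutant libraries. In adenoma-enriched cells it was counted 337 times in LApc (33.6 CPM, 30.1 to 37.4) and 13028 times in LApcL (119 CPM, 117 to 121). The LApcL library stood 3.54-fold higher, a log2 ratio of 1.82 (1.67 to 1.98). Of 9723 genes with a mean of at least 5 CPM over both sums, 85 (0.874%) stood at least 2-fold higher in LApcL, and *Pgc* was the 1 member among them. The 4 WT cells in the adenoma-enriched class held no UMI of any of the 4 genes, which says little at that number of cells.

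The 3 other members stood lower in LApcL. *Pnliprp1* was counted 990 times in LApc (98.8 CPM, 92.7 to 105) and 872 times in LApcL (7.96 CPM, 7.44 to 8.51), 12.4-fold lower with a log2 ratio of -3.63 (-3.77 to -3.50). *Pnliprp2* was counted 1211 times in LApc (121 CPM, 114 to 128) and 342 times in LApcL (3.12 CPM), 38.7-fold lower with a log2 ratio of -5.27 (-5.45 to -5.10). *Prss56* was counted 402 times in LApc (40.1 CPM, 36.3 to 44.2) and 46 times in LApcL (0.420 CPM, 0.307 to 0.560), 95.5-fold lower with a log2 ratio of -6.58 (-7.05 to -6.14). The intervals of both libraries did not overlap for any of the 4 genes. Of the same 9723 genes 796 (8.19%) stood at least 2-fold lower in LApcL, and 3 of the 4 members did. The median log2 ratio of all these genes was -0.11, and the 4 ratios are given without that shift.

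Some of these sizes depended on which cells were counted. With adenoma cells taken by a marker gate (at least 2 UMIs over 7 adenoma marker genes) in place of subclusters, the log2 ratio of *Pnliprp2* was -3.60. With subclusters built without correction between libraries, in which the adenoma-enriched class of LApc grew to 3394 cells, the log2 ratios were 2.65 (*Pgc*), -2.49 (*Pnliprp1*), -4.07 (*Pnliprp2*) and -5.40 (*Prss56*). Of the 46 *Prss56* UMIs of LApcL 27 lay in 1 cell, and without the top cell of each library the log2 ratio was -7.72. Of the 872 *Pnliprp1* UMIs of LApcL 274 lay in 1 cell, which held 45 *Pnliprp2* UMIs and 0 UMIs of pancreatic acinar genes, and the log2 ratio without the top cells was -4.00. The directions did not change under any of the 11 alternatives run.

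**Figure D1:**
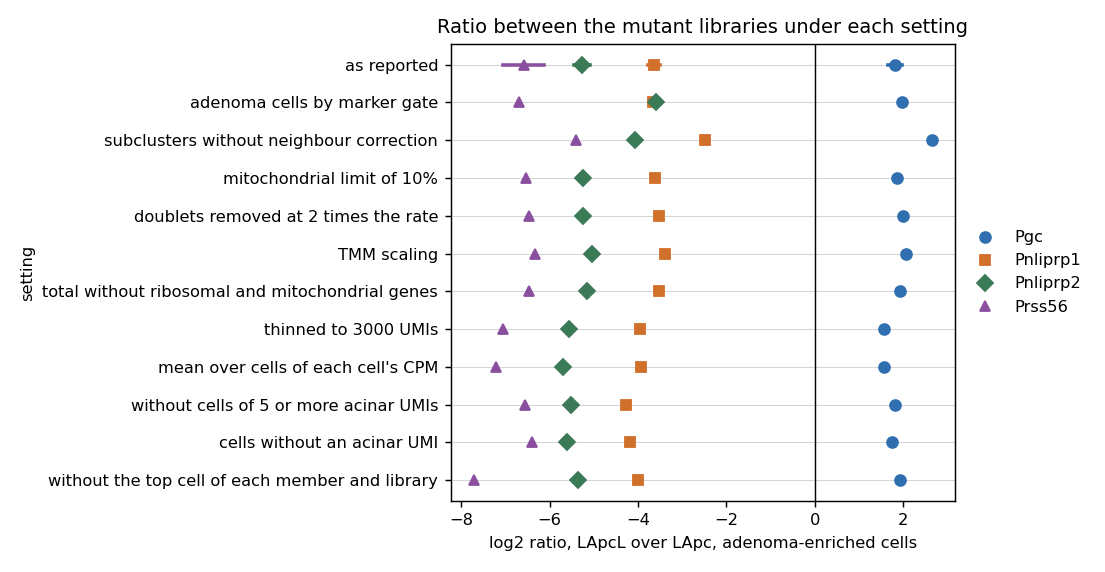
Log2 ratio of each gene, LApcL over LApc, in summed adenoma-enriched cells (x axis), as reported with its 95% counting interval (thick line, top row) and under each alternative setting (y axis). *Pgc* lies between 1.56 and 2.65 and the other 3 genes lie between -7.72 and -2.49 in every setting.

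Set against the other cells of the same library, the 4 genes did not form 1 group. In LApc all of them stood higher in adenoma-enriched cells than in the sum of all other cells, with log2 ratios of 2.91 (*Pgc*, 33.6 against 4.48 CPM), 3.96 (*Pnliprp1*, 98.8 against 6.36 CPM), 2.62 (*Pnliprp2*, 121 against 19.6 CPM) and 6.40 (*Prss56*, 40.1 against 0.476 CPM). All 4 were thus among the genes at least 4-fold higher in that contrast, 599 (6.11%) of 9805. In LApcL the log2 ratios were 2.49 (*Pgc*, 119 against 21.2 CPM), 0.91 (*Pnliprp1*, 7.96 against 4.23 CPM), -3.63 (*Pnliprp2*, 3.12 against 38.7 CPM) and 2.68 (*Prss56*, 1.04 to 5.01, 0.420 against 0.0657 CPM). Only *Pgc* was among the genes at least 4-fold higher there, 135 (1.43%) of 9414, and *Prss56* was below the level filter. Of the 1765 *Pnliprp2* UMIs of the other LApcL cells, 1383 lay in Paneth-like cells. In other Wnt/TA-like cells of LApcL *Pnliprp2* stood at 2.17 CPM (1.42 to 3.18). That interval overlapped the one of adenoma-enriched cells (2.80 to 3.47), which were thus not lower than this class. These ratios restate the choice of the genes.

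**Figure D2:**
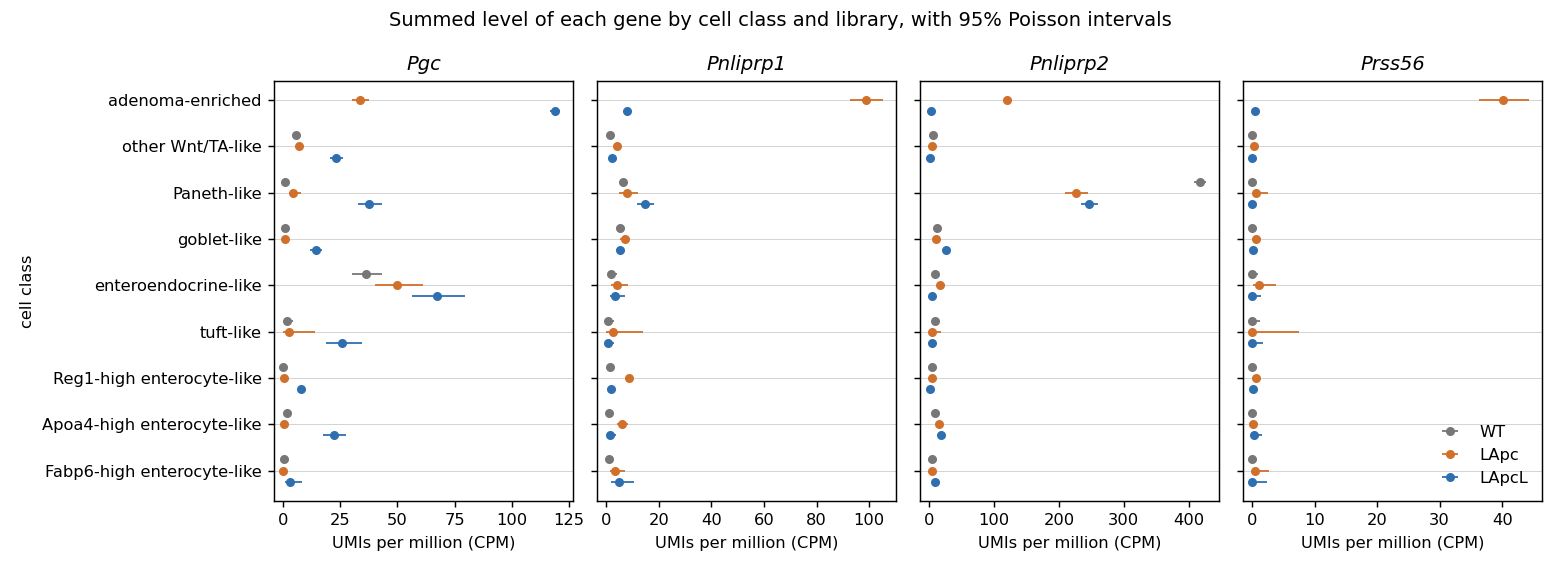
Level of each gene in CPM (x axis, own scale per gene) in the summed cells of each class (y axis) and library (colour), with 95% Poisson intervals. Sums of under 50 cells are left out. *Pnliprp1* and *Prss56* stand apart in LApc adenoma-enriched cells (98.8 and 40.1 CPM), *Pgc* is highest in LApcL adenoma-enriched cells (119 CPM), and *Pnliprp2* is highest in Paneth-like cells of all 3 libraries.

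*Pgc* had 2 further places of detection that were present in WT. Enteroendocrine-like cells, the hormone-secreting cells, held it at 36.2 CPM in WT (30.0 to 43.3), 49.9 CPM in LApc and 67.3 CPM in LApcL. The values of LApcL and LApc came next after LApcL adenoma-enriched cells in the order of levels, and the interval of LApc adenoma-enriched cells overlapped that of WT enteroendocrine-like cells. Within that class, split after the values had been seen by the hormone gene with most UMIs (at least 5), cells led by *Cck*, the gene of cholecystokinin, stood at 208 CPM in WT (62 UMIs in 30 cells, of which 8 held a UMI), 271 CPM in LApc (73 UMIs in 68 cells) and 147 CPM in LApcL (30 UMIs in 27 cells). Cells led by *Gip* stood at 8.78, 2.83 and 92.1 CPM. The *Cck*-led cells of WT and LApc were thus above the LApc adenoma-enriched cells per UMI.

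The second place was the normal stem cell compartment. Among the remaining Wnt/TA-like cells, those with a UMI of *Lgr5* held *Pgc* at 14.9 CPM in WT (12.3 to 17.8), against 2.80 CPM in cells without one. The pairs were 19.7 against 4.38 CPM in LApc and 48.8 against 16.1 CPM in LApcL. The log2 ratios were 2.41 (1.97 to 2.85), 2.16 (1.59 to 2.74) and 1.60 (1.25 to 1.94), so *Pgc* stood higher in the *Lgr5*+ cells of 3 of 3 libraries. This was not particular to *Pgc*. *Pnliprp2* also stood higher there in 3 of 3 libraries, at lower levels (log2 ratios of 0.90, 1.22 and 2.05, intervals above 0). *Pnliprp1* did so in WT (2.33, 1.47 to 3.22), and its intervals held 0 in LApc and LApcL. Median depths of both kinds of cell were close in WT (9801 and 10774 UMIs), with the *Lgr5*+ cells the shallower.

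Enterocyte-like cells, which should lack *Pgc*, held it at 0.156 to 1.89 CPM in WT, 0 to 0.492 CPM in LApc and 3.23 to 22.2 CPM in LApcL. Transcripts that mark adenoma cells moved with it: in LApcL, *Pgc* was 0.189 UMIs per UMI of *Sox17* and *Msx1* in adenoma-enriched cells, and 0.155 to 0.198 in Paneth-like, goblet-like, enteroendocrine-like, tuft-like and both the *Reg1*-high and *Apoa4*-high enterocyte-like classes. The ratio was 0.454 in other Wnt/TA-like cells and 0.0360 in *Fabp6*-high enterocyte-like cells. In LApc the ratio was 0.111 in adenoma-enriched cells, 3.09 in other Wnt/TA-like cells and 5.53 in enteroendocrine-like cells. The part of free RNA or of mixed droplets in the *Pgc* of LApcL cells outside the adenoma-enriched class was not tested.

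The lipase genes differed in their normal sites. *Pnliprp2* was a gene of Paneth-like cells, the antimicrobial secretory cells of the crypt base, at 417 CPM in WT (8293 UMIs), 226 CPM in LApc (649 UMIs) and 246 CPM in LApcL (1383 UMIs). The intervals of LApc and LApcL overlapped, and that of WT lay above both. LApc adenoma-enriched cells came next, at 121 CPM. *Clps*, which encodes the colipase that pancreatic lipases need in the presence of bile salts, was high in the same Paneth-like cells, at 4239, 3632 and 2681 CPM. In adenoma-enriched cells it stood at 47.9 CPM (LApc) and 38.0 CPM (LApcL). *Pnliprp2* therefore came to 98.3, 62.3 and 91.9 UMIs per 1000 *Clps* UMIs in Paneth-like cells and to 2523 (LApc) and 82.2 (LApcL) in adenoma-enriched cells. Per 1000 UMIs of the Paneth cell gene *Lyz1* the values were 25.9, 19.1 and 17.3 in Paneth-like cells, 516 in LApc adenoma-enriched cells and 4.33 in LApcL adenoma-enriched cells. In LApc, *Lyz1* stood lower in the adenoma-enriched cells with a *Pnliprp2* UMI (148 CPM) than in those without one (248 CPM).

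*Pnliprp1* had no comparable normal site. Its highest level outside LApc adenoma-enriched cells was 14.8 CPM, in Paneth-like cells of LApcL, and its WT levels were 0.847 to 6.48 CPM over the classes. RNA of pancreatic acinar cells was present in all 3 libraries, and its part in the low *Pnliprp1* levels was not tested. At least 1 UMI of *Cpa1*, *Cela2a*, *Ctrb1*, *Pnlip* or *Prss2* was found in 4.32% (WT), 22.0% (LApc) and 16.5% (LApcL) of kept cells, and 1 LApcL cell held 3249 of them. In LApc adenoma-enriched cells *Pnliprp1* came to 2.70 UMIs per acinar UMI, against 0.0323 to 0.144 in the other classes of that library. In WT it came to 4.16 in Paneth-like cells and 0.141 to 0.327 in the other classes of over 50 cells. In LApcL adenoma-enriched cells it came to 0.129 per acinar UMI, within the 0.0133 to 0.155 of the other classes. The cell of 3249 acinar UMIs was in this class, which held 6773 in all, and so lowered that ratio. Of the 872 *Pnliprp1* UMIs of the class, 499 lay in cells without an acinar UMI. Restricted to adenoma-enriched cells without an acinar UMI, *Pnliprp1* stood at 99.4 CPM (LApc) and 5.45 CPM (LApcL). The LApc value was thus as large without these cells.

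**Figure D3:**
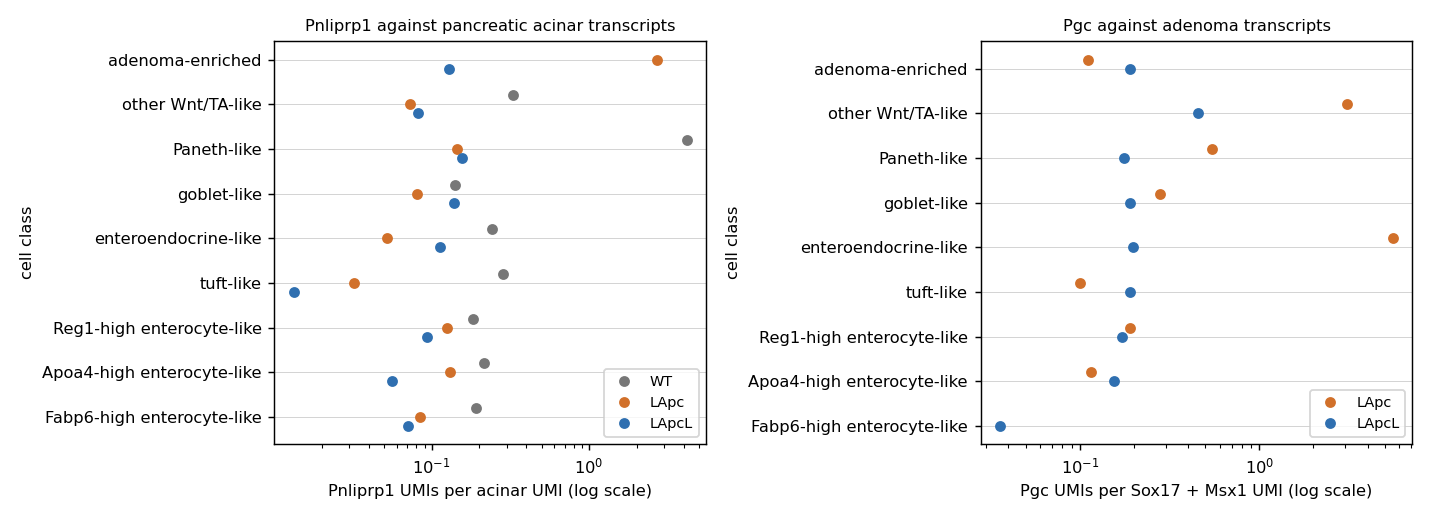
Left, *Pnliprp1* UMIs per UMI of 5 pancreatic acinar genes, and right, *Pgc* UMIs per UMI of *Sox17* and *Msx1* (x axes, log scale), in each cell class (y axis) and library (colour). Sums of under 50 cells and ratios of 0 are left out. *Pnliprp1* in LApc adenoma-enriched cells lies at 2.70, apart from the other LApc classes, and *Pgc* in 7 of 9 LApcL classes lies between 0.155 and 0.198.

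*Prss56* was the member closest to being restricted to adenoma-enriched cells. WT held 0 *Prss56* UMIs, which allows up to 0.0248 CPM over the whole library. The 40.1 CPM of LApc adenoma-enriched cells came to 1618-fold that limit, a value that leaves out the counting error of the LApc level. Of the 427 UMIs of LApc 94.1% lay in adenoma-enriched cells, and of the 49 UMIs of LApcL 93.9%. The same share was 58.9% and 93.1% for *Pgc*, 74.8% and 81.9% for *Pnliprp1*, and 54.0% and 16.2% for *Pnliprp2*. These shares also follow from how many cells of a library were adenoma-enriched, 13.3% in LApc and 63.6% in LApcL.

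All 4 genes were found in a minority of adenoma-enriched cells. After each cell had been thinned to 3000 UMIs, which left out 37 LApc and 22 LApcL cells, *Pgc* was detected in 3.64% of LApc cells (2.67 to 4.84) and 18.0% of LApcL cells (17.2 to 18.8). *Pnliprp1* was detected in 10.8% (9.08 to 12.6) and 0.875% (0.695 to 1.09), *Pnliprp2* in 10.8% (9.08 to 12.6) and 0.602% (0.454 to 0.783), and *Prss56* in 4.45% (3.37 to 5.75) and 0.0547% (0.0178 to 0.128). Without thinning the shares were 6.44% and 37.2% (*Pgc*), 15.6% and 2.12% (*Pnliprp1*), 15.8% and 2.12% (*Pnliprp2*) and 6.20% and 0.153% (*Prss56*). In *Reg1*-high enterocyte-like cells, which gave the background, the thinned shares in LApc and LApcL were 0.106% and 1.86% for *Pgc*, 1.27% and 0.466% for *Pnliprp1*, 0.954% and 1.02% for *Pnliprp2*, and 0.159% and 0.0931% for *Prss56*. Median depths of these enterocyte-like cells were 7134 and 9012 UMIs. The LApcL share of *Pnliprp2* in adenoma-enriched cells was thus at or below the background. *Prss56* was found in 5 thinned adenoma-enriched cells of LApcL and in 1 *Reg1*-high enterocyte-like cell, too few to compare. For *Pgc*, some other classes stood well above this background. In LApc its thinned share was 2.24% in other Wnt/TA-like cells, whose interval overlapped that of adenoma-enriched cells. It was higher in LApc enteroendocrine-like cells, at 9.31%. Paneth-like (14.3%) and enteroendocrine-like (14.1%) cells of LApcL had intervals that overlapped that of adenoma-enriched cells. Other Wnt/TA-like cells of LApcL stood lower, at 6.59%. In LApc a few cells held much of the RNA: the 10 top cells gave 56.4% of the *Pgc* UMIs, 43.6% of *Pnliprp1*, 38.0% of *Pnliprp2* and 47.8% of *Prss56*. In LApcL the 10 top cells gave 5.29% of the *Pgc* UMIs, which were spread over 3412 cells, but 68.8% of *Pnliprp1*, 43.0% of *Pnliprp2* and 91.3% of *Prss56*.

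In LApc, the share of cells with *Pnliprp1* was lower among cells with *Pgc* than among cells without it, with intervals that did not overlap. Of the 82 LApc adenoma-enriched cells with a *Pgc* UMI, 4 held *Pnliprp1* (4.88%, 1.34 to 12.0), against 195 of the 1192 cells without *Pgc* (16.4%, 14.3 to 18.6). *Pnliprp2* was held by 9 of the *Pgc*+ cells (5.14 to 19.8%) and by 16.1% of the others (14.1 to 18.3%), and these intervals overlapped. *Prss56* was held by 1 *Pgc*+ cell (1.22%) and by 6.54% of the others. Both lipases went together: of the 199 cells with *Pnliprp1* 115 held *Pnliprp2* (57.8%, 50.6 to 64.7), against 86 of the 1075 cells without it (8.00%, 6.45 to 9.79). Of the 79 cells with *Prss56* 51.9% held *Pnliprp2* and 41.8% held *Pnliprp1*, against 13.4% and 13.9% of the cells without it. The *Pnliprp1*+ cells were the shallower, with a median of 6267 UMIs against 7653. After thinning, 0 of 45 *Pgc*+ cells held *Pnliprp1*, which allows a share of up to 6.67%, and 67 of 133 *Pnliprp1*+ cells held *Pnliprp2* (50.4%). No LApc cell held all 4 genes, 28 held 3 of them and 888 held none. In LApcL *Pgc* was found in 39.2% of the 194 cells with *Pnliprp1* (32.3 to 46.4) and in 37.2% of the cells without it, a difference not detectable at this number of cells. *Pnliprp2* was found in 13.4% of LApcL cells with *Pnliprp1* and 1.87% of those without. Acinar RNA moved with that pair in LApcL: it stood at 2164 CPM in the cells with *Pnliprp1* and 17.6 CPM in those without. A single cell gave 3249 of the acinar UMIs of the first group, which stood at 728 CPM without it. The part of acinar RNA in the joint detection was not tested. In LApc the acinar values were 56.5 and 33.2 CPM.

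**Figure D4:**
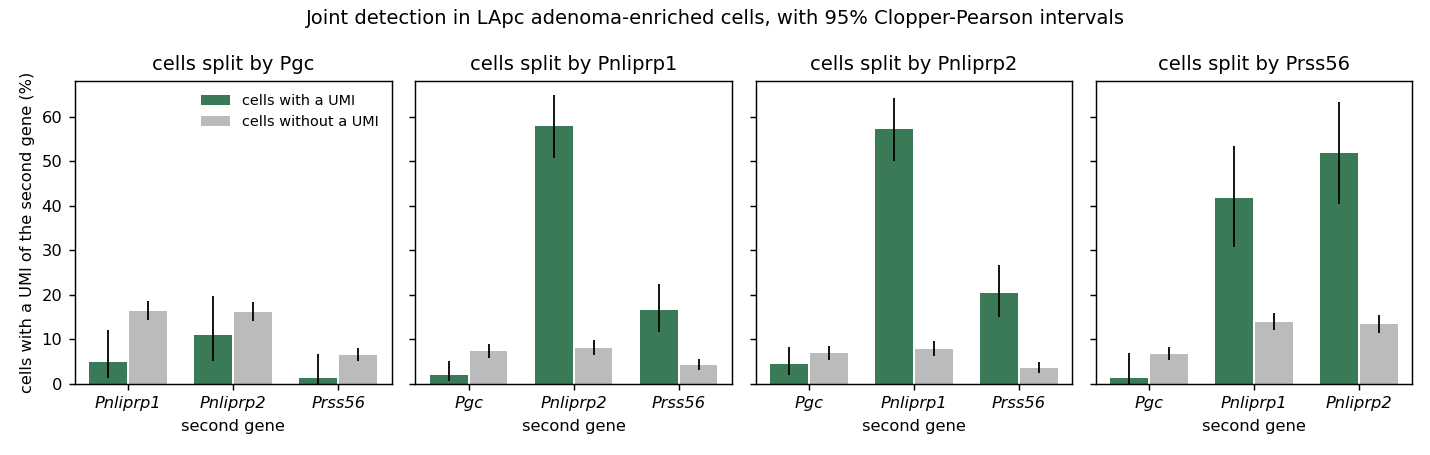
Share of LApc adenoma-enriched cells with a UMI of a second gene (y axis, percent), in cells with (green) and without (grey) a UMI of the gene named above each panel, unthinned, with 95% Clopper-Pearson intervals. *Pnliprp1* and *Pnliprp2* are found together (57.8% against 8.00%), whereas *Pnliprp1* is less frequent in *Pgc*+ cells (4.88% against 16.4%).

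The members also differed over the 4 adenoma-enriched subclusters. Subcluster 1 had high *S100g*, which encodes a calcium-binding protein, at 17939 CPM in LApc and 9574 CPM in LApcL, with little of the proliferation gene *Mki67* (23.5 and 29.1 CPM). It held the most *Pgc*, at 127 CPM in LApc and 253 CPM in LApcL. *S100g* was also high in subcluster 3, at 8711 and 6940 CPM. Subcluster 4 had the most *Wfdc18*, which encodes a small secreted protein of the WAP family, at 2769 and 111 CPM, again with little *Mki67* (16.1 and 26.8 CPM). It held the most *Pnliprp1* (203 and 41.6 CPM), *Pnliprp2* (242 and 11.4 CPM) and *Prss56* (80.5 and 2.38 CPM). Few of its 1622 LApcL cells gave these counts. They were 630 *Pnliprp1* UMIs in 59 cells, 173 *Pnliprp2* UMIs in 46 and 36 *Prss56* UMIs in 5. Single cells held 274 of the *Pnliprp1* and 27 of the *Prss56* UMIs. Subclusters 2 and 3 had more *Mki67*, at 118 to 216 CPM. In LApc, subcluster 4 gave 94.6% of the *Pnliprp1*, 92.0% of the *Pnliprp2* and 92.3% of the *Prss56* UMIs of adenoma-enriched cells. Subcluster 1 gave 64.1% of the *Pgc* UMIs, which were 216 UMIs in 37 cells. Subclusters 2, 3 and 4 of LApc held *Pgc* at 4.13, 16.3 and 18.9 CPM. The remaining Wnt/TA-like subclusters 0, 5 and 6 of that library held it at 1.30, 15.6 and 15.5 CPM. The intervals of subclusters 3 and 4 overlapped those of subclusters 5 and 6. *S100g*, *Wfdc18* and *Mki67* were chosen to describe the subclusters after their values had been seen.

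**Figure D5:**
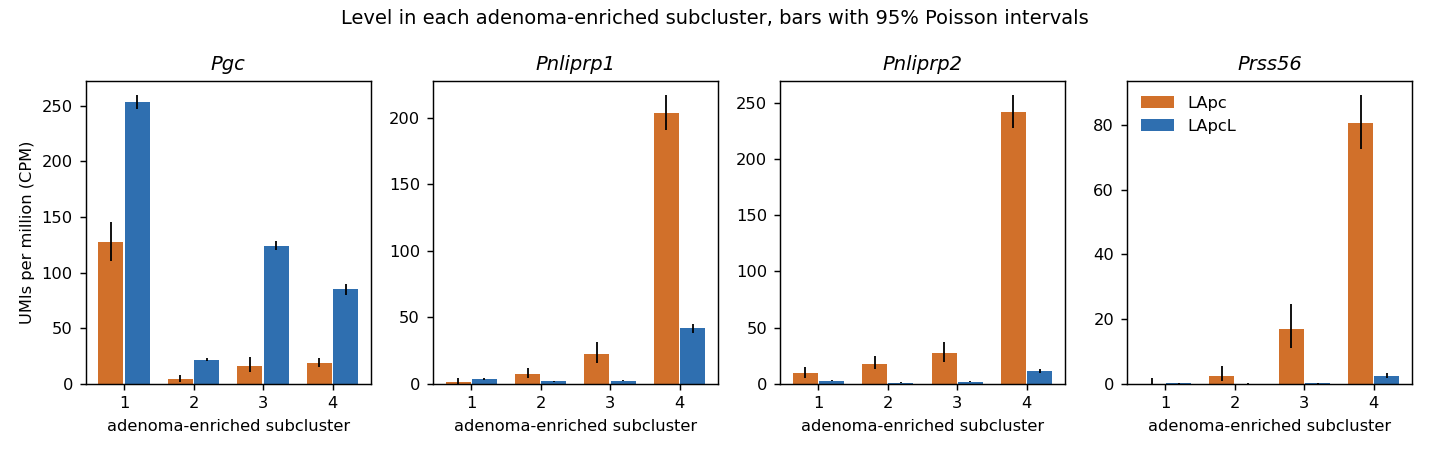
Level of each gene in CPM (y axis, own scale per gene) in the 4 adenoma-enriched subclusters (x axis) of LApc (orange) and LApcL (blue), bars with 95% Poisson intervals. *Pgc* is highest in subcluster 1 of both libraries (127 and 253 CPM), and the other 3 genes are highest in subcluster 4 of both. In LApcL subcluster 4 rests on 59 (*Pnliprp1*), 46 (*Pnliprp2*) and 5 (*Prss56*) cells with a UMI.

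The subclusters took unequal shares of the libraries. Subcluster 4 held 53.1% of the adenoma-enriched cells of LApc and 17.7% of those of LApcL, and subcluster 1 held 17.8% and 28.2%. Within subcluster 4, LApcL still stood lower for *Pnliprp1* (log2 ratio -2.29, -2.44 to -2.14), *Pnliprp2* (-4.40, -4.64 to -4.17) and *Prss56* (-5.08, -5.62 to -4.59). The LApcL side of these ratios rested on 59, 46 and 5 cells with a UMI, a spread that the intervals do not cover. *Pnliprp1* was also lower in LApcL within subclusters 2 and 3 (-1.98 and -3.34). In subcluster 1 its log2 ratio was 1.69 (-0.20 to 4.76) on 2 LApc UMIs, an interval that held 0. *Pgc* stood higher in LApcL within each of the 4 subclusters, with log2 ratios of 0.99, 2.40, 2.93 and 2.17 for subclusters 1 to 4. With the 4 subclusters weighted equally, the log2 ratios were 1.54 (*Pgc*), -2.24 (*Pnliprp1*), -4.12 (*Pnliprp2*) and -5.21 (*Prss56*). Within subcluster 1 of LApc, most *Pgc* UMIs lay in cells with less *S100g*. There were 206 UMIs in 76 cells under 2000 CPM of *S100g* (470 CPM, 408 to 539) and 10 UMIs in 151 cells above it (7.93 CPM). Of the 76 cells 30 held a *Pgc* UMI, and their median depth was the lower (5201.5 against 7949 UMIs). In LApcL, *Pgc* stood at 303 CPM (292 to 315) in 983 cells under that cut and 229 CPM in 1600 cells above it. Under the cut, *Pgc* thus stood lower in LApcL than in LApc, with intervals that did not overlap. This was the reverse of the direction over the whole subcluster.

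The *Pgc*+ cells also differed in other genes. *Gkn3*, which encodes a gastrokine, was also present in WT, at 110 CPM in other Wnt/TA-like cells. It stood at 1656 CPM in LApc adenoma-enriched cells with a *Pgc* UMI and at 327 CPM in those without. In LApcL the values were 126 and 64.9 CPM, so *Gkn3* was higher in the *Pgc*+ cells of both libraries. So were *Lyz1*, at 692 against 202 CPM in LApc and 1099 against 481 CPM in LApcL, and *Sox17*, at 294 against 174 CPM and 378 against 270 CPM. In LApc cells with *Pnliprp1*, *Gkn3* stood at 131 CPM, against 460 CPM in those without. *Muc6*, a gel-forming mucin of gastric glands and Brunner glands, stood at 206 CPM in LApc cells with *Pnliprp1* and 115 CPM in those without, and at 60.7 and 5.88 CPM in LApcL.

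Over 26 sums of a library and a class (at least 50 cells each), the genes most like *Pgc* by Pearson correlation of log2(CPM + 1), among 11355 genes, were *Lysmd2*, *Arhgdig*, *Ccdc3*, *Tcaf1* and *Rgcc* (r of 0.91 to 0.92). Those most like *Pnliprp1* were *Muc6* (0.83), *Wfdc18*, *Bpifb5*, *Gpx6* and *Ptn* (0.76 to 0.79). Those most like *Pnliprp2* were *Gm15299*, *Defa26*, *Itln1*, *Defa23* and *AY761184* (0.82 to 0.85), of which *Defa26* and *Defa23* are defensins of Paneth cells. Those most like *Prss56* were *Bpifb5* (0.95), *Ptn*, *Slc38a4*, *Npy* and *Wnt6* (0.89 to 0.92). *Bpifb5*, a gene of the secreted BPI-fold family, and *Ptn*, which encodes the growth factor pleiotrophin, stood near both *Pnliprp1* and *Prss56*. *Bpifb5* stood at 49.5 CPM in LApc and 0.402 CPM in LApcL adenoma-enriched cells, and *Muc6* at 128 and 7.01 CPM. Among the members, *Pnliprp1* and *Prss56* correlated at 0.78, *Pnliprp1* and *Pnliprp2* at 0.60, and *Pgc* with the others at 0.06 to 0.22. *Prss56* stood at 1.06 CPM or less in every sum but that of LApc adenoma-enriched cells. A gene high in that sum alone is thus like *Prss56* by the choice of the members. *Bpifb5* had 567 UMIs over all kept cells, where at least 500 were required, and passed mainly through that sum. The sums also share libraries and depth, so these values describe the table and carry no test.

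Related genes were read in the same adenoma-enriched sums. Of 16 measured gastric genes, 7 other than *Pgc* reached 5 CPM in both mutant libraries, and *Atp4b* and *Tff2* reached it in LApc alone. All 7 stood lower in LApcL than in LApc, with a median log2 ratio of -1.92 against -0.09 over the 9091 genes at 5 CPM in both. Of the 7, 6 stood at least 2-fold lower, as did 5% of those 9091 genes, of which 0.682% stood at least 2-fold higher. *Gkn3* stood at 413 CPM in LApc and 88.5 CPM in LApcL, against 110 CPM in other Wnt/TA-like cells of WT, so it was not absent from normal crypt cells. *Atp4a*, a subunit of the gastric proton pump, stood at 190 and 46.9 CPM, and *Gkn1* at 111 and 32.3 CPM. *Pgc* was thus the 1 gastric gene at 5 CPM in both that stood higher in LApcL. Of the other genes known from gastric chief cells, the gastric lipase gene *Lipf*, the pepsinogen gene *Pga5* and the intrinsic factor gene *Gif* were near 0. *Gif* had 3 and 33 UMIs, *Lipf* 18 and 44, and *Pga5* 1 and 7, in LApc and LApcL.

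Among 8 aspartic proteases, 4 others than *Pgc* reached 5 CPM in both libraries, 2 of them at least 2-fold lower in LApcL. *Ctse*, which encodes cathepsin E, an aspartic protease of gastric surface cells, stood at 285 CPM (LApc) and 76.9 CPM (LApcL). *Bace2* stood at 57.7 and 91.9 CPM. The median log2 ratio of the 4 was -0.92. Among 18 trypsin-like proteases, 9 others than *Prss56* reached 5 CPM in both libraries, of which 1 stood at least 2-fold lower in LApcL (background 5%) and 0 at least 2-fold higher (0.682%). That gene was *Plat*, which encodes tissue plasminogen activator, at 213 and 21.4 CPM. *Prss22* (5.79 and 1.39 CPM) and *Hpn* (11.3 and 2.83 CPM) reached 5 CPM in LApc alone. The median log2 ratio of the 9 was -0.22.

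Among 12 genes of the lipase family and its cofactors, *Pnlip*, *Clps* and *Liph* reached 5 CPM in 1 or both libraries beside both members. *Pnlip*, the classical pancreatic lipase, stood at 4.89 CPM (LApc) and 6.58 CPM (LApcL). None of the 3 stood higher in adenoma-enriched than in other cells of both libraries. Of 27 measured pancreatic acinar genes, 8 reached 5 CPM in both libraries, with a median log2 ratio of 0.33, and 3 in LApcL alone. *Prss2* was the 1 gene at least 2-fold higher in LApcL (6.98 and 15.1 CPM, background 0.682%). *Cela1* was the 1 gene at least 2-fold lower (130 and 57.1 CPM, background 5%). A single LApcL adenoma-enriched cell held 3249 of the 6773 UMIs of *Cpa1*, *Cela2a*, *Ctrb1*, *Pnlip* and *Prss2* in that class. The levels of the single acinar genes without that cell were not computed. Of 12 measured protease inhibitors, 6 reached 5 CPM in both libraries, of which 3 stood at least 2-fold lower in LApcL (background 5%), with a median log2 ratio of -0.70. *Serpine2* and *Slpi* reached it in LApc alone, and *Slpi*, an inhibitor of leukocyte proteases, was counted 56 times in LApc and 2 times in LApcL.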

How the data were processed

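Droplet single-cell RNA libraries of sorted EpCAM+ small intestinal cells were analysed, 1 per genotype (WT, LApc, LApcL). The deposited files give, for every barcode and each of 27998 genes, a UMI count that the authors made with Cell Ranger 2.1.1 on an mm10 (GRCm38) reference, without normalization. The authors' cell annotation was not used here, so classes were rebuilt. There were 11453 barcodes with 140181087 UMIs in WT, 13214 with 79696291 in LApc and 17388 with 191509615 in LApcL.

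Barcodes with over 20% mitochondrial UMIs, and the 1% with the fewest and the most genes per library, were removed. Scrublet (scanpy 1.11.5) scored doublets, and 1023, 1135 and 2326 cells were removed at the expected rate. Cells were integrated by canonical correlation analysis in Seurat 5.3.0 (R 4.3.3, 20 components, resolution 0.2). Clusters were called "X-like" from marker lists, with at least 3 markers raised 1.5-fold. The members, the related genes and the 7 adenoma marker genes were left out of the 930 clustering features. Markers that named the classes were not left out unless they were also related genes, so the names were not checked on markers held out from clustering. The *Fabp6*-high class rests on weak marker scores. Wnt/TA-like cells were corrected between libraries by mutual nearest neighbours and subclustered (leidenalg 0.10.2). UMIs were summed per library and class and divided by the total (CPM). Sums carry exact Poisson intervals, ratios exact conditional binomial intervals and shares Clopper-Pearson intervals, and a count of 0 was given a limit of 3 counts. Fold counts used genes with a mean of at least 5 CPM. The ratio and its interval were tested on simulated data with known folds. Named genes were the 4 members, the 5 genes most like each, related list genes reaching 5 CPM, and genes said to have been chosen after their values were seen. The members and gene lists were chosen with earlier results of these data known.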

Additional observations from a re-analysis of the deposited data

Results flagged for a closer look

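*Pnliprp2* moved in opposite directions in adenoma-enriched against other cells of the same library. The log2 ratio was 2.62 in LApc and -3.63 in LApcL, with 1 library each, and the difference was not tested. Paneth-like cells gave 1383 of the 1765 UMIs of the other LApcL cells. Against other Wnt/TA-like cells of LApcL (2.17 CPM) the adenoma-enriched cells (3.12 CPM) were not lower.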

How the results depend on the processing

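No paired analysis was possible because each group had 1 library, and no library could be left out for the same reason. All ratios kept their direction under all 11 alternatives, and 75 of 132 stayed within the counting interval of the reported value. Limits on cells without acinar UMIs and without top cells were added after the data had been seen. Where a value moved, the cause was not tested. With the marker gate, log2 ratios were -3.60 (Pnliprp2) between the mutants, 2.38 (Pgc), 2.76 (Pnliprp2) against other LApc cells and 2.80 (Pgc), 1.54 (Pnliprp1), -1.12 (Pnliprp2) against other LApcL cells. Without neighbour correction, log2 ratios were 2.65 (Pgc), -2.49 (Pnliprp1), -4.07 (Pnliprp2), -5.40 (Prss56) between the mutants, 2.36 (Pgc), 2.52 (Pnliprp1), 0.99 (Pnliprp2), 4.82 (Prss56) against other LApc cells and 0.57 (Pnliprp1), -4.09 (Pnliprp2) against other LApcL cells. With a mitochondrial limit of 10%, log2 ratios were 4.34 (Pnliprp1) against other LApc cells. With doublets removed at 2 times the rate, log2 ratios were 2.01 (Pgc) between the mutants, 3.26 (Pnliprp2) against other LApc cells and 2.70 (Pgc), 1.17 (Pnliprp1), -2.50 (Pnliprp2) against other LApcL cells. With TMM scaling, log2 ratios were 2.06 (Pgc), -3.40 (Pnliprp1), -5.04 (Pnliprp2) between the mutants, 2.35 (Pgc), 3.40 (Pnliprp1), 2.06 (Pnliprp2) against other LApc cells and 2.27 (Pgc), -3.85 (Pnliprp2) against other LApcL cells. With cells thinned to 3000 UMIs, log2 ratios were 1.57 (Pgc), -3.96 (Pnliprp1), -5.57 (Pnliprp2), -7.07 (Prss56) between the mutants, 4.37 (Pnliprp1), 3.62 (Pnliprp2) against other LApc cells and -2.90 (Pnliprp2) against other LApcL cells. With the mean of per-cell CPM, log2 ratios were 1.56 (Pgc), -3.93 (Pnliprp1), -5.71 (Pnliprp2), -7.21 (Prss56) between the mutants, 3.61 (Pnliprp2) against other LApc cells and 0.65 (Pnliprp1), -2.75 (Pnliprp2) against other LApcL cells. Without cells of 5 or more acinar UMIs, log2 ratios were -4.26 (Pnliprp1), -5.51 (Pnliprp2) between the mutants, 4.59 (Pnliprp1) against other LApc cells and -3.87 (Pnliprp2) against other LApcL cells. In cells without an acinar UMI, log2 ratios were -4.19 (Pnliprp1), -5.61 (Pnliprp2) between the mutants, 4.69 (Pnliprp1) against other LApc cells and -3.93 (Pnliprp2) against other LApcL cells. Without the top cells, log2 ratios were -4.00 (Pnliprp1), -7.72 (Prss56) between the mutants, 3.78 (Pnliprp1) against other LApc cells and 0.37 (Pnliprp1), -3.83 (Pnliprp2) against other LApcL cells. The number of genes was 136 at least 2-fold higher in LApcL than LApc, 486 at least 2-fold lower in LApcL than LApc without neighbour correction. The number of genes was 152 at least 2-fold higher in LApcL than LApc with TMM scaling. The number of genes was 2708 at least 2-fold higher in LApcL than LApc, 4206 at least 2-fold lower in LApcL than LApc, 2999 at least 4-fold higher in adenoma-enriched than other LApc cells, 2242 at least 4-fold higher in adenoma-enriched than other LApcL cells with a filter of 1 UMI only. Unthinned shares are given above beside the thinned ones: 6.44%, 37.2%, 15.6%, 2.12%, 15.8%, 2.12%, 6.2%, 0.153%. At 1274 LApc cells a member under 3 UMIs could not be told from 0, and LApc was the shallowest library.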
